A study of Mus musculus with 10 samples.

Results

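The 34 genes described here encode nucleolar proteins of ribosome biogenesis and subunits of RNA polymerase I, all known targets of the transcription factor Myc. They were taken by name, from a list of such genes. Each gene was read from 1 probe set, the one with the highest mean over the 10 arrays among those annotated to a single gene symbol. All 34 of the 34 genes had such a probe set, out of 18193 genes with a probe set in the table, and all 34 passed the filter on low signal, which left 12250 genes to test.

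The study profiled laser-dissected colon tumours on Affymetrix mouse genome arrays to compare 2 genotypes. The KO tumours (n = 5) carried vil-Cre-Bcl9-/-/Bcl9l-/-, and the WT tumours (n = 5) came from wild-type mice. Both groups shared the 129SvEv/C57BL/6/DBA/2 mixed background, and all mice were treated at 6 to 8 weeks of age, with 1 dose of the procarcinogen dimethylhydrazine (DMH, 44 mg/kg) and, after it, for 7 days with 2% dextran sulfate sodium in the drinking water, an agent that damages the colon lining. Bcl9 and Bcl9l are cofactors of beta-catenin in Wnt signalling, and vil-Cre expresses Cre recombinase from the villin promoter, which is active in intestinal epithelium, so other cells of a tumour need not carry the deletion.

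KO tumours 2 and 6 came from mouse 02, tumours 9 and 11 from mouse 04 and tumour 7 from mouse 99. WT tumours 1, 3, 12 and 13 came from mouse 72 and tumour 8 from mouse 82. Tumours of a mouse are not independent animals, so the mouse was a random block in the tests reported, unless another fit is named. The extraction protocol mentions pooling per mouse although the labels list several arrays for some mice, and each array was treated as 1 tumour. The targeted genes did not separate the genotypes at the RNA level. Bcl9 had 8.49 ± 0.20 log2 units in KO tumours, against 8.28 ± 0.22 in WT tumours (SD, n = 5 each; adjusted p = 0.41 by limma), and Bcl9l had 8.40 ± 0.22 in KO and 8.27 ± 0.15 in WT tumours (adjusted p = 0.62). Whether these probe sets lie in the deleted exons was not examined, so they need not report the deletion. All 8 epithelial markers examined, among them Epcam and Vil1, passed the signal filter, and none of them differed past the threshold. In dissected tissue, fewer cells of a type and less RNA per cell cannot be told apart.

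Ribosomes are assembled mainly in the nucleolus. RNA polymerase I transcribes a long precursor there, small nucleolar RNPs (snoRNPs) modify and help to cut it, and separate sets of factors build the small and the large subunit from the pieces. In intestinal epithelium and its tumours this work is known to track cell growth, and Myc is a known activator of many of its genes. Myc binds with Max to the sequence CACGTG, an E-box that reads the same on both strands.

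Promoter sequence from RefSeq (build GRCm38.p6, 250 bases before to 50 bases after the start of a gene) was held for 28 of the 34 genes. CACGTG occurred in 6 of these windows (21.4%), those of Wdr43, Imp4, Tsr1, Pes1, Nop2 and Mybbp1a. It occurred in 8.09% of the 27025 gene windows held in all, and in 11.4% of the 9864 windows of genes tested here. A match describes the letters of a window and is not evidence of binding. The 4 windows below belong to the genes with the smallest p between KO and WT among these 6. They are shown because they place the Myc E-box, in capitals, relative to the start, and all lie on the + strand, written 5′ to 3′. The E-box begins 121 bases before the start in Imp4 (chr1:34439579-34439878) and 60 bases before it in Nop2 (chr6:125131633-125131932). In Tsr1 (chr11:74897830-74898129) it begins at base 25 and in Mybbp1a (chr11:72441077-72441376) at base 41 of the transcribed part.
Imp4: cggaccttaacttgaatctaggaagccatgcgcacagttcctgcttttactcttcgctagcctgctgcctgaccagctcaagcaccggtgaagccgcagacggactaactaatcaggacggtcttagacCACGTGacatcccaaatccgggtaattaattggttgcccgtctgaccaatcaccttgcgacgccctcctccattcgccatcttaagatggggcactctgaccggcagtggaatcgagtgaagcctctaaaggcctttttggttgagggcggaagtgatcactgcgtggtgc
Tsr1: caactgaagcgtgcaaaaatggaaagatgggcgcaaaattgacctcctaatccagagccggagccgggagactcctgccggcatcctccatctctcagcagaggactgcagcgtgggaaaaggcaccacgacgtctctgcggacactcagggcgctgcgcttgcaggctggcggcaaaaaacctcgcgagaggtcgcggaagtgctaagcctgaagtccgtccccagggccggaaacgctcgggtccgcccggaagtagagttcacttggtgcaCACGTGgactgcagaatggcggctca
Nop2: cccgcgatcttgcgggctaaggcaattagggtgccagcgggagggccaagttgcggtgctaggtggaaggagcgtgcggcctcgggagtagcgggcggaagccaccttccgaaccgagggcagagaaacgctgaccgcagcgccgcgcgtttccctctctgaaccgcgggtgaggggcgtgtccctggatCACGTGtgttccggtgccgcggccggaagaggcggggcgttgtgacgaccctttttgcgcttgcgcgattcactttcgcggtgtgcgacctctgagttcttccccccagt
Mybbp1a: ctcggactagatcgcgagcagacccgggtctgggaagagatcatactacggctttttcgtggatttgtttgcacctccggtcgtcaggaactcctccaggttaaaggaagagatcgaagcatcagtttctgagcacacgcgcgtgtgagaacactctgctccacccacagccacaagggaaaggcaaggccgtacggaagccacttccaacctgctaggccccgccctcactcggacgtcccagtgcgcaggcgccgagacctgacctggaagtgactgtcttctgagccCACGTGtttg
The KO minus WT difference of the 6 genes with CACGTG ranged from -0.06 to 0.19 log2 (median 0.10), and that of the 22 genes with a window without it ranged from -0.18 to 0.68 (median 0.09).

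Between KO and WT tumours, no gene of the group changed past the threshold. By limma, with p adjusted by the Benjamini-Hochberg method over 12250 genes, 0 of 34 genes were higher and 0 lower in KO tumours at an adjusted p under 0.05, where 4.16% of all genes tested were higher and 2.93% lower (7.09% in either direction). At an unadjusted p under 0.05 stood 2 of the 34, Polr1b and Rcl1, where 22.4% of all genes did. In 0 of the 34 genes were the KO and WT tumours without overlap, against 9.12% of all genes. The differences were positive in 22 of 34 genes (53.8% of all genes), with a median of 0.09 log2 (0.03 over all genes) and a range of -0.18 to 0.68.

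The data bounded the size of a difference for most of the group. The 95% interval lay within 1.5-fold either way in 27 of 34 genes (54.8% of all genes) and within 2-fold in 33 (80.2%), the exception to the last being Polr1b. The 7 genes with wider intervals than 1.5-fold were Polr1b, Dkc1, Rcl1, Rrp12, Bop1, Rrp1b and Gnl3. These intervals rest on 5 tumours a group, from 3 KO and 2 WT mice, and hold for this fit and the probe sets used. The unique sample numbers in the labels fall into a lower range with 1 KO (tumour 7) and 4 WT tumours and an upper range with 4 KO and 1 WT (tumour 1). The median difference of the 34 genes was 0.37 within the lower range, 0.02 within the upper and 0.21 in a fit that holds the range as a covariate, and 0 of 34 passed in each of these fits. Leaving out KO tumour 7 gave a median of 0.0039, and leaving out either KO tumour 2 or WT tumour 12 gave 0.04. It was 0.14 without KO tumour 6, 0.16 without KO tumour 9, 0.19 without mouse 04 and 0.17 without mouse 72. Over mouse means it was 0.15. Of the 27 genes with intervals within 1.5-fold, Nolc1 (0.67) and Rrp9 (0.61) had differences beyond 1.5-fold within the lower range.

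**Figure D1:**
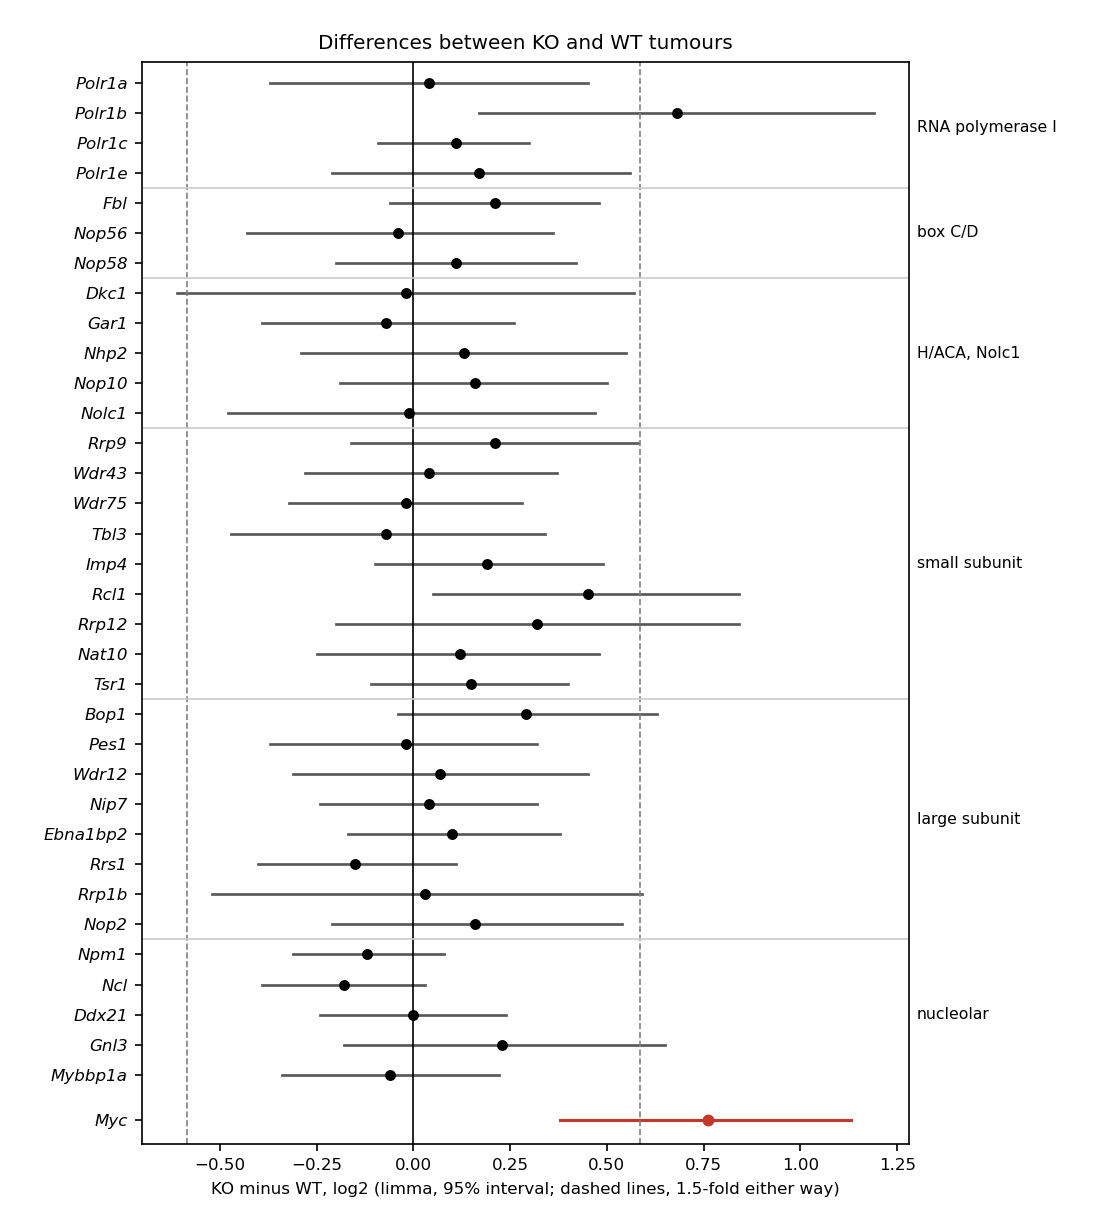
KO minus WT difference (x axis, log2) of each of the 34 ribosome biogenesis genes (y axis, by role) with its 95% interval from limma, and of Myc in red at the bottom; dashed lines mark 1.5-fold either way. The points run from -0.18 (Ncl) to 0.68 (Polr1b), and the interval of Myc lies from 0.38 to 1.13.

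RNA polymerase I makes the precursor of the ribosomal RNAs. Its 4 members all had positive differences, with a median of 0.14 log2, and 0 of 4 passed the test. Polr1a, the largest subunit, had log2 signals of 9.26, 8.96, 9.46, 8.55 and 8.70 in KO tumours 2, 6, 7, 9 and 11, against 8.92, 9.12, 8.96, 8.65 and 9.10 in WT tumours 1, 3, 8, 12 and 13, the order kept below. The WT tumours lay inside the range of the KO tumours, whose highest was tumour 7 and lowest tumour 9. The difference was 0.04 (SE 0.19, 95% interval -0.37 to 0.45, adjusted p = 0.926, limma).

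Polr1b, the other large catalytic subunit, was singled out after its values were seen, as the member with the smallest p. It had 7.63, 7.20, 6.88, 7.00 and 7.35 in KO tumours and 6.99, 6.75, 6.75, 6.06 and 6.06 in WT tumours. Only KO tumour 7 fell within the WT range, and WT tumours 12 and 13 were the lowest. The difference of 0.68 (SE 0.23, 95% interval 0.17 to 1.19), or 1.60-fold, did not pass the threshold (adjusted p = 0.109, limma). It was 0.36 with the number range as a covariate (adjusted p = 0.424), 0.30 within the upper range (0.588) and 0.45 without mouse 72 (0.551). Of the other settings in which Polr1b was tested, it passed only in a fit with array weights, which give less weight to arrays that deviate from the fit (0.81, adjusted p = 0.0467).

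Polr1c, a subunit shared with RNA polymerase III, was at 11.64 ± 0.09 in KO and 11.53 ± 0.08 in WT (SD, n = 5 each), a difference of 0.11 (adjusted p = 0.524, limma). Polr1e, a subunit-associated factor of the enzyme, was at 8.13 ± 0.35 in KO and 7.97 ± 0.17 in WT tumours, a difference of 0.17 (adjusted p = 0.614, limma). Of 11 other subunits and initiation factors of RNA polymerase I, 0 passed the test in either direction, 2 had an unadjusted p under 0.05, and the median difference was 0.04. Of 19 tested subunits and factors of RNA polymerase III, 0 passed, 3 had an unadjusted p under 0.05 and the median was 0.05.

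**Figure D2:**
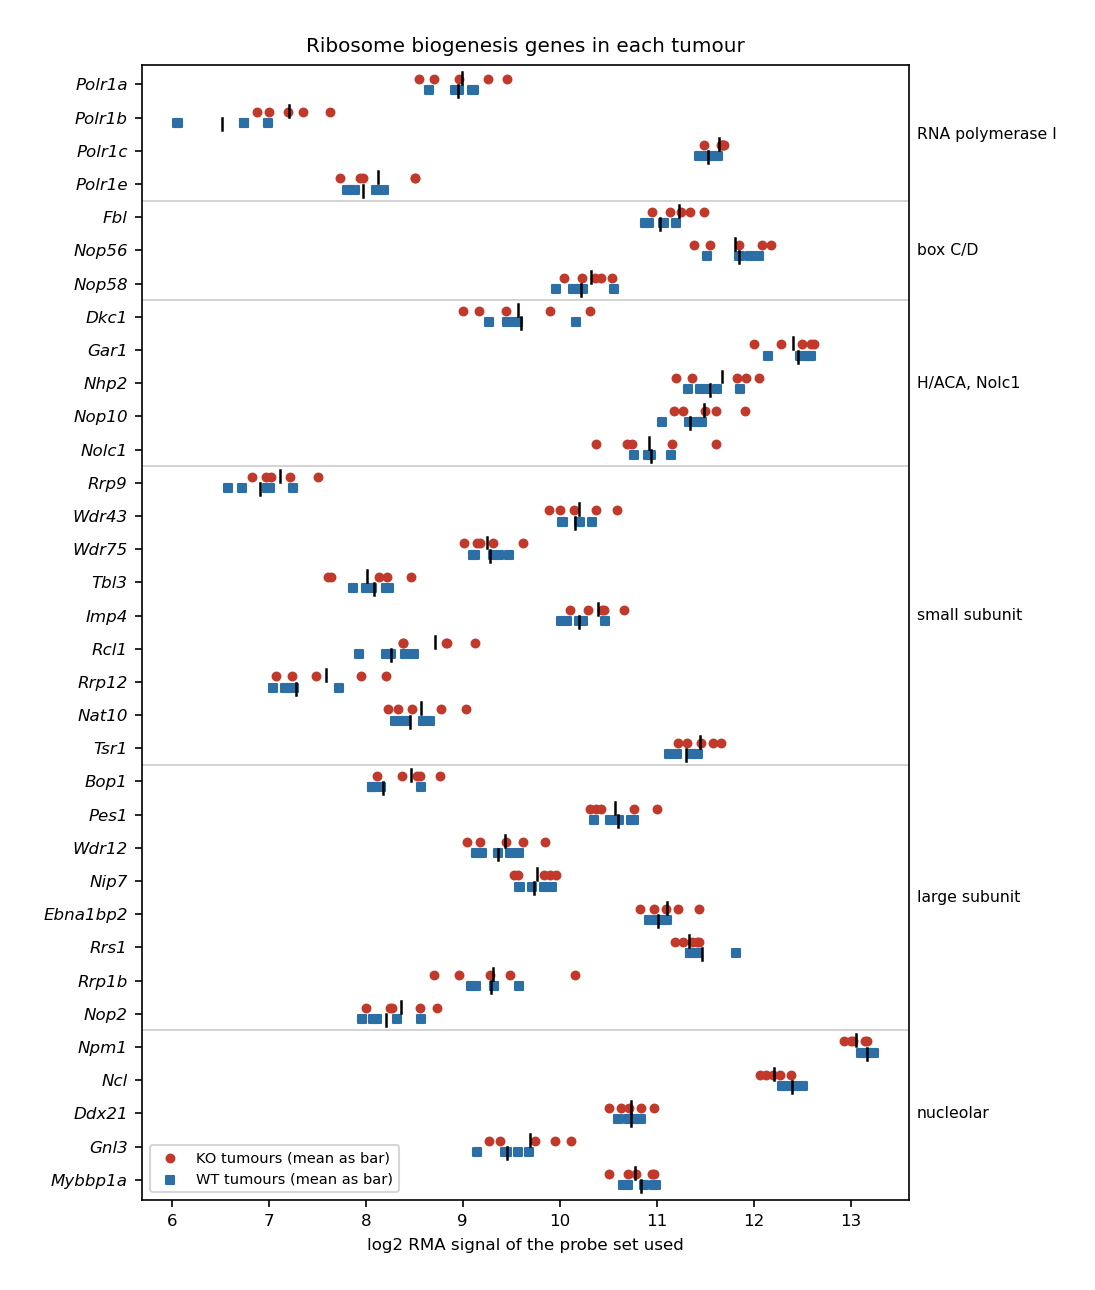
log2 RMA signal (x axis) of the probe set used for each of the 34 genes (y axis, by role) in 5 KO tumours (red circles) and 5 WT tumours (blue squares), with group means as black bars. The 2 groups overlap in every gene, and signals of different probe sets cannot be compared with each other.

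The box C/D snoRNPs methylate ribosomal RNA, and 0 of their 3 core members passed the test. Fbl, fibrillarin, is the methyltransferase. It had 11.49, 11.14, 11.34, 10.95 and 11.25 in KO tumours, against 11.20, 11.08, 10.88, 11.06 and 10.92 in WT tumours. KO tumours 2, 7 and 11 lay above every WT tumour, and KO tumour 9 lay among the lowest of the WT tumours. The difference was 0.21 (SE 0.12, 95% interval -0.06 to 0.48, adjusted p = 0.348, limma). The scaffold proteins Nop56 and Nop58 had differences of -0.04 (adjusted p = 0.934) and 0.11 (adjusted p = 0.705).

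The H/ACA snoRNPs convert uridine to pseudouridine in ribosomal RNA. Of their 4 core members and Nolc1, a chaperone of snoRNPs, 0 of 5 passed, and the median difference was -0.01. Dkc1, dyskerin, is the pseudouridine synthase. It had 9.90, 9.45, 10.31, 9.004 and 9.17 in KO tumours, against 9.45, 10.17, 9.57, 9.27 and 9.52 in WT tumours. The KO tumours held both the highest value (tumour 7) and the lowest (tumours 9 and 11), and the difference was -0.02 (SE 0.27, 95% interval -0.61 to 0.57, adjusted p = 0.972, limma). The other probe sets of Dkc1 above the filter had mean differences of 0.39 and 0.53, so the probe sets of this gene disagree in sign.

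Gar1, Nhp2 and Nop10, which bind dyskerin or the guide RNA in the same particle, had differences of -0.07, 0.13 and 0.16 (adjusted p = 0.837, 0.74 and 0.608). Nolc1, singled out after its values were seen for its spread, had 11.16, 10.69, 11.61, 10.38 and 10.74 in KO tumours, against 10.90, 11.15, 10.77, 10.95 and 10.92 in WT tumours. The KO tumours surrounded the WT tumours on both sides, with an SD of 0.48 in KO and 0.14 in WT. Its difference was -0.01 (adjusted p = 0.989), and 0.01 with arrays centred on the median. The other probe sets of Nolc1 above the filter had mean differences of 0.57 and -0.12, so its probe sets too disagree in sign. Of 9 tested factors that assemble snoRNPs, 0 passed, 0 had an unadjusted p under 0.05, and the median difference was 0.09. That median was 0.0033 without KO tumour 2, 0.02 without KO tumour 7, 0.33 in the lower number range and -0.03 in the upper.

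The 9 members that mature the small subunit had a median difference of 0.15, positive in 7, and 0 of 9 passed. Rcl1, a protein of the early small subunit processome, was singled out after its values were seen. It had 9.12, 8.38, 8.84, 8.39 and 8.83 in KO tumours, against 7.93, 8.50, 8.41, 8.26 and 8.21 in WT tumours. KO tumours 2, 7 and 11 lay above all WT tumours, while KO tumours 6 and 9 lay below WT tumours 3 and 8. The difference was 0.45 (SE 0.18, 95% interval 0.05 to 0.84), or 1.36-fold, with an adjusted p of 0.167 (limma).

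Rrp12, known in yeast for export of pre-ribosomes from the nucleus, had 7.95, 7.24, 8.21, 7.07 and 7.49 in KO tumours, against 7.05, 7.72, 7.17, 7.22 and 7.26 in WT tumours, a difference of 0.32 (adjusted p = 0.467). This gene too was singled out after its values were seen, and KO tumours 2 and 7 were its highest. Among the processome proteins, Rrp9 had a difference of 0.21, Imp4 of 0.19, Wdr43 of 0.04, Wdr75 of -0.02 and Tbl3 of -0.07. Nat10, the acetyltransferase of the small subunit RNA, had a difference of 0.12, and Tsr1, which acts on late precursors of the small subunit, of 0.15. Their adjusted p-values ran from 0.441 (Imp4) to 0.953 (Wdr75). Of 38 other small subunit factors, 0 passed, 3 had an unadjusted p under 0.05, and 27 differences were positive with a median of 0.13. That median was 0.06 without KO tumour 2, 0.05 without KO tumour 7 and 0.30 within the lower number range.

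Of the 8 members that mature the large subunit, 0 passed, 6 had positive differences and the median was 0.06. Bop1 forms the PeBoW complex with Pes1 and Wdr12. It had 8.56, 8.37, 8.76, 8.12 and 8.53 in KO tumours, against 8.07, 8.57, 8.06, 8.08 and 8.15 in WT tumours. WT tumour 3 was level with KO tumour 2, and the other WT tumours reached no higher than 8.15, near KO tumour 9. The difference was 0.29 (SE 0.15, 95% interval -0.04 to 0.63, adjusted p = 0.29, limma). Its partners had differences of -0.02 for Pes1 (adjusted p = 0.955) and 0.07 for Wdr12 (adjusted p = 0.845).

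Rrp1b, singled out after its values were seen, had the widest KO range of the group, with 9.48, 8.70, 10.15, 8.96 and 9.28 in KO tumours, against 9.13, 9.58, 9.33, 9.09 and 9.33 in WT tumours. Its KO mean of 9.31 ± 0.56 and its WT mean of 9.29 ± 0.19 (SD, n = 5 each) were nearly equal, and the difference was 0.03 (adjusted p = 0.956, limma). Nip7, Ebna1bp2 and Nop2, a methyltransferase of the large subunit RNA, had differences of 0.04, 0.10 and 0.16. Rrs1, needed to bring the small RNP of the large subunit into its precursor, had -0.15 (adjusted p = 0.509), with WT tumour 8 at 11.82 above all others. Of 36 other large subunit factors tested, 0 passed, 3 had an unadjusted p under 0.05, and 24 differences were positive with a median of 0.06. That median was 0.01 without KO tumour 2, 0.03 without KO tumour 7 and 0.21 within the lower number range.

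The 5 abundant nucleolar proteins had 1 positive difference (2 with arrays centred on the median) and a median of -0.06, and 0 of 5 passed. Npm1, nucleophosmin, is a scaffold of the outer nucleolus. It had 13.15, 13.02, 13.17, 12.93 and 13.002 in KO tumours, against 13.13, 13.24, 13.20, 13.10 and 13.17 in WT tumours. KO tumours 6, 9 and 11 lay below all WT tumours, and the difference was -0.12 (SE 0.09, 95% interval -0.31 to 0.08, adjusted p = 0.478, limma).

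Ncl, nucleolin, binds the precursor RNA. It had 12.27, 12.20, 12.38, 12.07 and 12.12 in KO tumours, against 12.29, 12.51, 12.42, 12.32 and 12.41 in WT tumours. Only KO tumour 7 lay above any WT tumour. The difference was -0.18 (SE 0.10, 95% interval -0.39 to 0.03, adjusted p = 0.291, limma). The other probe sets of Ncl above the filter had mean differences of -0.06, -0.09, 0.31 and 0.39, so the sign rests on the probe set. The remaining 3 were Gnl3, nucleostemin, with 0.23 (adjusted p = 0.506), Mybbp1a, a nucleolar partner of transcription factors, with -0.06 (adjusted p = 0.82), and Ddx21, an RNA helicase, with 10.73 ± 0.18 in KO and 10.73 ± 0.09 in WT tumours (adjusted p = 0.993).

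The SD among KO tumours was larger than that among WT tumours in 31 of 34 genes (91.2%), where this was so for 43.8% of all genes tested. The median SD over the 34 genes was 0.29 log2 in KO and 0.17 in WT tumours, and over all genes 0.22 in KO and 0.23 in WT. The exceptions were Polr1b, Nop58 and Rrs1. This comparison was added after the values were seen and carries no test. Most of the 34 genes moved together across tumours, so they are not 34 separate observations. Above their own mean lay 33 genes in KO tumour 2, 31 in KO tumour 7 and only 3 in KO tumour 9. KO tumours came from 3 mice and 4 of the 5 WT tumours from 1, and spread between mice and genotype cannot be told apart here. Without KO tumour 9 the count was 25 of 34, without KO tumour 7 it was 27, and with a gene's probe sets averaged it was 26.

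By role, the median SD was 0.37 in KO and 0.18 in WT tumours for the H/ACA genes with Nolc1, and 0.32 in KO and 0.18 in WT for the RNA polymerase I subunits. It was 0.29 in KO and 0.16 in WT for the small subunit factors, and 0.26 in KO and 0.19 in WT for the large subunit factors. The abundant nucleolar proteins had 0.18 in KO and 0.09 in WT, and the 3 box C/D proteins 0.20 in both. The KO SD was thus the larger in all 9 small subunit factors, all 5 H/ACA genes, all 5 nucleolar proteins, 7 of the 8 large subunit factors, 3 of the 4 RNA polymerase I subunits and 2 of the 3 box C/D proteins.

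**Figure D3:**
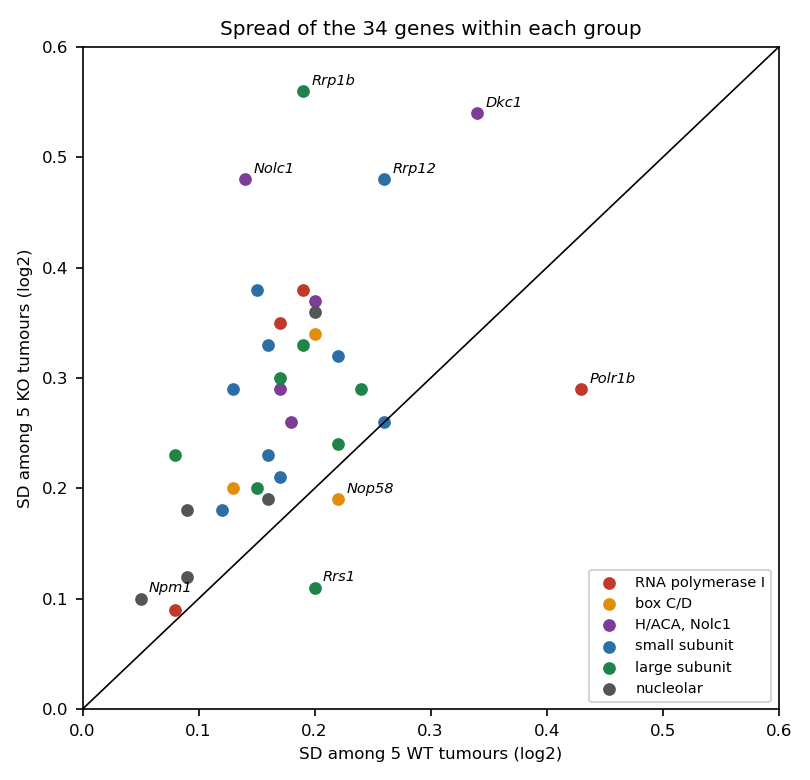
SD of the log2 signal among 5 KO tumours (y axis) against that among 5 WT tumours (x axis), 1 point for each of the 34 genes, coloured by role; the line marks equal SDs. All but Polr1b, Nop58 and Rrs1 lie above the line, with medians of 0.29 in KO and 0.17 in WT tumours.

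The spread followed single tumours. The mean deviation of the 34 genes from each gene's own mean was 0.27, -0.10, 0.31, -0.26 and 0.02 log2 in KO tumours 2, 6, 7, 9 and 11, against -0.07, 0.14, -0.06, -0.19 and -0.06 in WT tumours 1, 3, 8, 12 and 13. KO tumours 2 and 7 were high, KO tumour 9 was low, and the WT tumours lay between them. The median deviation over all genes tested stayed within -0.03 to 0.05 in each tumour. By role, KO tumour 7 was the highest for the H/ACA genes (0.36) and for the small and the large subunit factors (0.37 each). KO tumour 2 was the highest for the RNA polymerase I subunits (0.40), the box C/D proteins (0.29) and the nucleolar proteins (0.18). KO tumour 9 was the lowest for the box C/D proteins (-0.28), the H/ACA genes (-0.43), the small and the large subunit factors (-0.25 and -0.24) and the nucleolar proteins (-0.25), and WT tumour 12 was the lowest for the RNA polymerase I subunits (-0.36). Over the 10 tumours, KO tumour 7 was the highest in 17 genes and KO tumour 2 in 11, whereas KO tumour 9 was the lowest in 18.

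Tumours of the same mouse differed as well, in pairs chosen after their values were seen. In mouse 02, KO tumour 2 was above KO tumour 6 in 33 of 34 genes by a median of 0.33 log2, where 55.2% of all genes were (median 0.04). In mouse 04, KO tumour 11 was above KO tumour 9 in 33 of 34 genes by a median of 0.28, against 55.1% of all genes (0.03). In mouse 72, WT tumour 3, the highest of its tumours, was above WT tumour 12, the lowest, in 34 of 34 genes by a median of 0.29, against 51.2% of all genes (0.01). These 2 tumours are the extremes of mouse 72 by the mean of the same 34 genes, so a high count was partly built in.

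**Figure D4:**
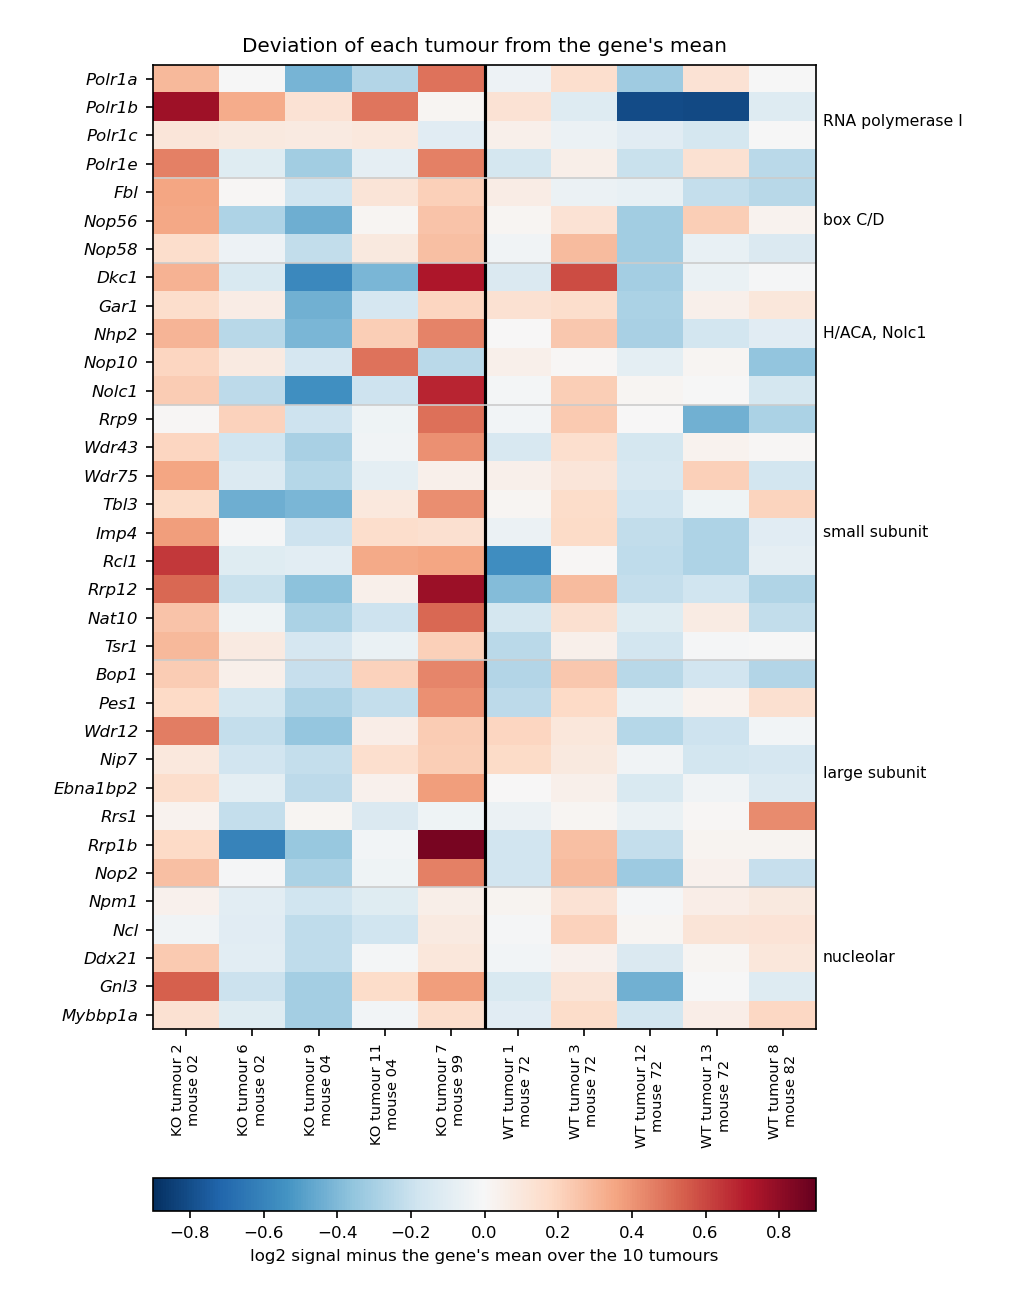
Deviation of each tumour (columns, by genotype and mouse) from the mean of each of the 34 genes (rows, by role), in log2 units from blue (below) to red (above). KO tumours 2 and 7 are red in most rows (mean deviations 0.27 and 0.31) and KO tumour 9 is blue (-0.26).

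Proliferation genes gave a partly like order. Their mean deviation, over 15 genes, was 0.24, 0.14, 0.31, -0.66 and 0.09 in the KO tumours and -0.05, 0.34, -0.51, -0.01 and 0.10 in the WT tumours, so KO tumour 9 was the lowest in both lists, and WT tumour 3, the highest WT tumour in both, was the highest of all for proliferation genes. Between genotypes 0 of the 15 passed the test, 0 had an unadjusted p under 0.05, and the median difference was 0.03. Other small subunit factors (38 genes) had mean deviations of 0.19, -0.06, 0.26, -0.15 and 0.01 in the KO tumours, and -0.05, 0.10, -0.11, -0.13 and -0.05 in the WT tumours. The other large subunit factors (36 genes) ran from -0.16 in KO tumour 9 to 0.22 in KO tumour 7, and from -0.13 in WT tumour 12 to 0.12 in WT tumour 3. The KO SD was the larger in 24 of the 38 and in 26 of the 36.

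The tissue markers also differed from tumour to tumour. The mean deviation of the 8 epithelial markers was -0.17, -0.07, 0.15, 0.22 and 0.18 in the KO tumours and -0.65, 0.31, 0.01, 0.33 and -0.32 in the WT tumours. That of the 4 endothelial markers was 0.58, -0.40, -0.35, -0.61 and -0.18 in the KO tumours and 0.62, -0.70, 0.44, 0.22 and 0.40 in the WT tumours. That of the 6 fibroblast markers was 0.36, -0.22, -0.36, -0.52 and -0.21 in the KO tumours and 0.54, -0.61, 0.27, 0.21 and 0.54 in the WT tumours. In endothelial and fibroblast markers KO tumour 2 was the highest and KO tumour 9 the lowest KO tumour, as KO tumour 9 was for the biogenesis genes, while WT tumour 3, the highest WT tumour for the biogenesis genes, was the lowest. The part of tissue makeup in the tumour pattern was not tested.

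Lymphocyte and plasma cell markers moved with the genotype. Of 9 tested markers 8 were higher in KO tumours, with a median difference of 1.81 log2. Their mean deviation ran from 0.60 to 1.08 in KO tumours and from -1.22 to -0.46 in WT tumours. Cd8a, the T cell co-receptor, was 6.51-fold higher (adjusted p = 0.000192, limma), and Jchain, the joining chain of secreted antibodies, 6.71-fold (adjusted p = 0.00151). Cd3e and Ms4a1 were among the listed markers that were not tested. Of 6 myeloid markers, Cd14 was higher in KO tumours. In the lower number range, which holds 1 KO tumour, Cd14 and the lymphocyte and plasma cell markers Mzb1, Ccl5, Jchain, Cd79a and Cd3g did not pass. Their differences there ran from 1.72 (Cd14) to 3.30 (Ccl5). Cd79a did not pass within the upper range either, which holds 1 WT tumour, and its difference in that range was 1.72. Of 6 fibroblast markers 0 passed, with a median of -0.45, and of 5 goblet cell markers 0 passed, with a median of 1.31 and the lowest level in WT tumour 1. The part of these cells in the levels of the ribosome biogenesis genes was not tested.

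The ribosomal proteins are the structural parts of the ribosome that these factors assemble. Of 79 listed genes 40 were tested, since most others had no probe set with a single symbol. In 37 of the 40 the difference was positive, against 53.8% of all genes. The median was 0.10 for the 20 large subunit proteins and 0.11 for the 20 small subunit proteins. With arrays centred on the median, 20 of 20 large and 18 of 20 small subunit proteins had positive differences. Within the lower number range these counts were 16 of 20 (median 0.13) and 18 of 20 (0.11). Within the upper range they were 15 of 20 (0.06) and 17 of 20 (0.11). The mean deviation of the small subunit proteins lay between 0.03 and 0.15 in KO tumours and between -0.21 and -0.04 in WT tumours, without overlap. That of the large subunit proteins lay between 0.03 and 0.14 in KO tumours and between -0.17 and 0.01 in WT tumours, also without overlap. The median SD was 0.09 in KO and 0.11 in WT tumours for the large subunit proteins, and 0.08 in KO and 0.09 in WT for the small subunit proteins. The KO SD was the larger in 6 of 20 genes of each list, against 31 of the 34 biogenesis genes. The 40 ribosomal protein genes had a median signal of 12.91 log2, higher than that of most biogenesis probe sets. The part of signal level in this contrast was not tested.

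Of the ribosomal proteins, 1 of 20 in each list passed the test, higher in KO tumours, where 4.16% of all genes tested were higher. Both had low signals for this group, with means of 8.16 log2 for Rps6 and 7.75 for Rpl39. Only 5 of the 40 genes lay under 10 log2, and among the other 35 the highest difference was 0.44. Rps6 was 2.13-fold higher, at 8.70 ± 0.10 in KO and 7.63 ± 0.28 in WT (SD, n = 5 each; adjusted p = 0.00156, limma). Rpl39 was 1.45-fold higher, at 8.02 ± 0.10 in KO and 7.48 ± 0.23 in WT tumours (adjusted p = 0.0308), and lost the call when tested on mouse means (adjusted p = 0.234), with the number range as a covariate (0.0713) and with a covariate for RNA quality, the 3′ signal minus the 5′ signal of controls (0.076). It was lost too when KO tumour 6 (0.0875) or 11 (0.0609), WT tumour 1 (0.078) or 13 (0.0609), or mouse 02, 04 or 72 was left out. Within the lower number range neither passed, and Rpl39 did not within the upper. Averaging the probe sets annotated to Rps6 alone lowered its difference to 0.43 (adjusted p = 0.049), against 1.09 for the probe set used. Probe sets that also match a pseudogene of Rps6 were not used, and ribosomal protein genes have many pseudogene copies, so these values are uncertain.

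**Figure D5:**
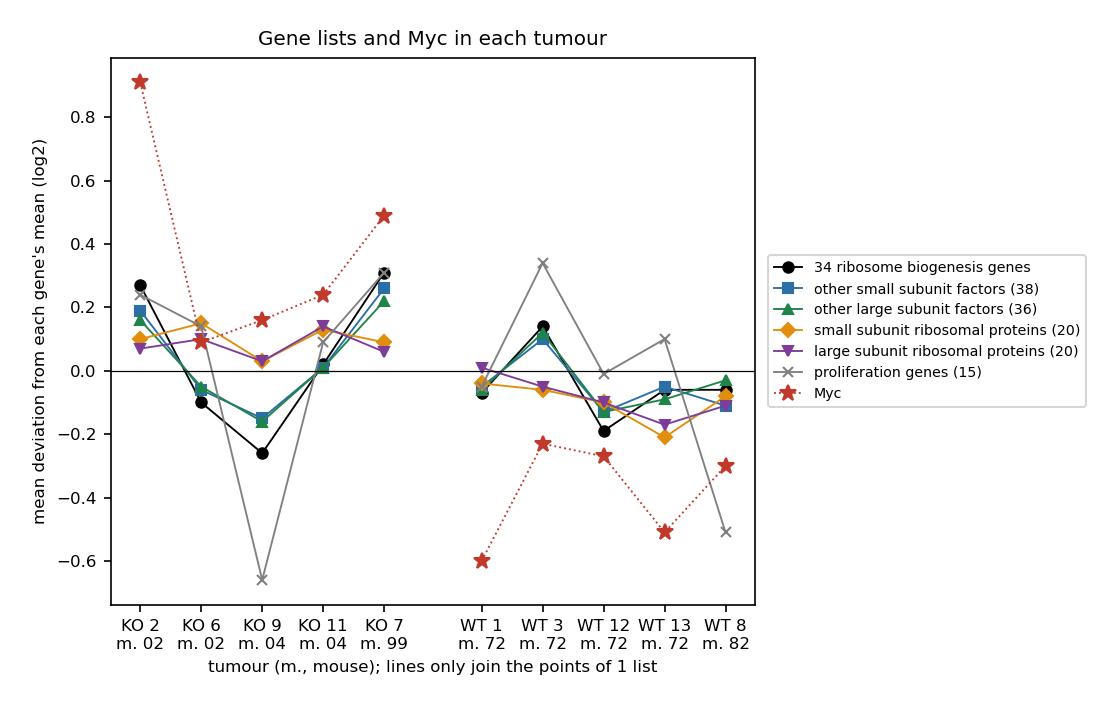
Mean deviation (y axis, log2) of 6 gene lists and of Myc in each tumour (x axis, 5 KO left and 5 WT right, with the mouse). The 34 biogenesis genes run between -0.26 and 0.31 in KO tumours, while the ribosomal protein lists stay between 0.03 and 0.15 there.

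Myc, the factor of which these genes are known targets, was higher in KO tumours, while 0 of the 34 genes passed. It had 11.82, 10.998, 11.40, 11.07 and 11.15 in KO tumours, against 10.31, 10.68, 10.61, 10.64 and 10.40 in WT tumours. Every KO tumour lay above every WT tumour, and the highest was KO tumour 2. The difference was 0.76 (SE 0.17, 95% interval 0.38 to 1.13), or 1.69-fold (adjusted p = 0.0253, limma). The call was lost on mouse means (0.75, adjusted p = 0.0671), without WT tumour 1 (0.70, adjusted p = 0.066), WT tumour 13 (0.73, 0.0511) or mouse 72 (0.68, 0.415), and within the lower (0.82, 0.236) and the upper number range (0.95, 0.191). The difference in these fits thus lay between 0.68 and 0.95. Without KO tumour 2, which had the highest Myc, it was 0.62 and the call held (adjusted p = 0.0205, limma).

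The tumour order of Myc and of its targets matched only in part. KO tumours 2 and 7 had the highest Myc and the highest biogenesis genes. KO tumour 9, with the lowest mean of the 34 genes, had a Myc level of 11.07, above all WT tumours. Of 11 genes of Myc and the Max network only Myc passed. Of 24 other known Myc targets tested, outside ribosome biogenesis, 1 passed, and it was lower in KO tumours: Tfrc, the transferrin receptor, at 10.71 ± 0.38 in KO and 11.69 ± 0.38 in WT (SD, n = 5 each; -0.95, adjusted p = 0.0327, limma). Tested on mouse means, Tfrc lost the call (adjusted p = 0.293), as it did with the number range as a covariate (0.125), within either range, without KO tumour 6 (0.0968), without WT tumour 1 (0.0846), 3 (0.06) or 12 (0.0509), and without mouse 02, 04 or 72. The median over these 24 was -0.03, with 11 positive. The genes of p53 and its targets respond to disturbed ribosome assembly, and 11 of those listed were tested, without Trp53, which encodes p53. Of these 11, 0 passed, 0 had an unadjusted p under 0.05, and the median was -0.06.

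Other probe sets of the same genes gave a further reading on the same arrays. Of 73 probe sets of the 34 genes, 29 beyond those used passed the signal filter, in 22 genes. Of these 29, 24 had a positive difference (51.7% of all such further probe sets in the table), 18 had the sign of the probe set used, and 25 had the larger SD in KO tumours. The groups were without overlap in 1 of the 29, a probe set of Tsr1 with means of 8.89 in KO and 8.63 in WT tumours. For the SD and the overlap, the share over all further probe sets was not computed.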

How the data were processed

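The authors deposited log2 signals, 1 for each probe set and array, and the submitters' processing notes name RMA for them (version not given in the sources used here); no further normalization was applied here. Of 45101 probe sets, 64 controls and those without a single gene symbol (932 had several) were left out. Symbols were updated by Entrez identifier for 34741 probe sets through RefSeq (GRCm38.p6), with no build named for the files. Each of 18193 genes was read from its probe set of highest mean. A mean no lower than log2 5.82, which is the 40th percentile of probe set means, was required, which left 12250 genes.

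KO and WT were compared with limma 3.58.1 (lmFit, eBayes; R 4.3.3, statmod 1.5.0), the mouse as a random block (consensus correlation 0.0586) and Benjamini-Hochberg adjustment over all genes tested, with a threshold of 0.05. Fitted differences weight tumours by mouse and can differ slightly from those of the means. The fit was tested on simulated data. Figures and counts used Python 3.11.15, pandas 2.3.3 and matplotlib 3.10.9. The number of arrays limits the precision.

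The 34 genes, the 18 other lists and the rules were chosen with earlier results of these data known. Values in every tumour are given for Npm1, Ncl, Fbl, Polr1a, Dkc1 and Bop1, for members past the threshold and for Myc. Of the other lists, up to 6 members past the threshold could be named. Promoters are printed for up to 4 genes with CACGTG. Alternatives were no block, mouse means, number range, 3′ to 5′ covariate, other level filters, other probe sets, centring, cyclic loess, robust eBayes, array weights, and each tumour or mouse left out.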

Additional observations from a re-analysis of the deposited data

Results flagged for a closer look

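In 5 of 96 groups of 5 tumours, 1 tumour lay far from the other 4, with a gap above 0.71 of the group's range, the critical value of Dixon's test. Chance gives such a gap in about 1 of 20 groups. For Polr1c, KO tumour 7 had 11.48 log2, and the other KO tumours had 11.67 to 11.70. For Gar1, WT tumour 12 had 12.15, and the other WT tumours had 12.48 to 12.59. For Bop1, WT tumour 3 had 8.57, and the other WT tumours had 8.06 to 8.15. For Rrs1, WT tumour 8 had 11.82, and the others had 11.34 to 11.42. For Bcl9, a targeted gene, KO tumour 9 had 8.84, and the other KO tumours had 8.35 to 8.47.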

How the results depend on the processing

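Under 29 other settings, of which 15 leave out a tumour or a mouse, 0 of the members tested passed, except 1 higher gene, Polr1b, with array weights. The median difference of the 34 genes was 0.37 within the lower number range and ran from 0.0039 to 0.19 with a tumour or mouse left out. Of the 34 genes, 13 kept their sign throughout and 21 changed it at least once, and the cause was not tested. Over mouse means the changed signs were Nop56 0.0036, Dkc1 0.10, Nolc1 0.16 and Wdr75 0.05. With the number range as a covariate they were Nop56 0.06, Dkc1 0.30, Nolc1 0.26, Tbl3 0.09, Pes1 0.22, Ddx21 0.04 and Mybbp1a 0.05. With the 3′ to 5′ covariate they were Nop56 0.01, Wdr75 0.05 and Ddx21 0.02. Within the lower range, with 1 KO tumour assumed to vary like the others, they were Polr1c -0.02, Nop56 0.24, Dkc1 0.68, Gar1 0.19, Nop10 -0.14, Nolc1 0.67, Wdr75 0.04, Tbl3 0.38, Pes1 0.34, Ddx21 0.10 and Mybbp1a 0.10. Within the upper range, with 1 WT tumour so assumed, they were Polr1a -0.05, Nhp2 -0.04, Pes1 0.12, Wdr12 -0.20, Nip7 -0.21, Ebna1bp2 -0.04, Rrp1b -0.03, Ddx21 0.0016, Mybbp1a 0.03 and, for the targeted gene Bcl9l, -0.01. With the mean of all probe sets they were Dkc1 0.30, Nolc1 0.15, Wdr75 0.19, Pes1 0.08, Ncl 0.08 and Ddx21 0.08, and without probe sets ending in x_at or s_at Rrs1 0.09. With centred arrays Nolc1 and Ddx21 were at 0.01, and with array weights Polr1a was at -0.05, Wdr43 at -0.00093 and Rrp1b at -0.04. With a tumour or mouse left out, Ddx21 ran from -0.10 to 0.08, Dkc1 from -0.22 to 0.28, Gar1 from -0.16 to 0.11, Mybbp1a from -0.21 to 0.04, Nat10 from -0.01 to 0.29, Nip7 from -0.02 to 0.18, Nolc1 from -0.19 to 0.21 and Nop56 from -0.13 to 0.09. In the same fits Pes1 ran from -0.14 to 0.13, Polr1a from -0.08 to 0.27, Rrp1b from -0.18 to 0.19, Tbl3 from -0.21 to 0.04, Wdr12 from -0.03 to 0.19, Wdr43 from -0.06 to 0.16 and Wdr75 from -0.11 to 0.15. The SD count and its alternatives were chosen after seeing the data, and it ran from 25 to 32 of 34 with a tumour left out and was 29 with centred arrays. The share of all genes called was 0.212% within the lower range and 9.89% with array weights. Fewer members were tested with the filter at the 60th percentile (32), with the mean of all probe sets (33) and without x_at or s_at probe sets (32). No paired analysis was possible because KO and WT tumours share no replicate number and no mouse.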
